A study of Danio rerio with 12 samples.

Results

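All 12 RNA-seq libraries of the series were read as a 2 x 2 design of panx1a genotype and panx1b genotype, to ask for which genes the loss of both pannexin1 ohnologs was not the sum of the separate losses. The libraries came from whole zebrafish larvae at 6 days post fertilization (dpf), kept in light and left untreated. The paper describes a daily cycle of light and dark for its fish, so "kept in light" need not mean constant light. There were 3 libraries each of wild-type controls of the Tupfel long fin (TL) strain, of panx1a-/- larvae, of panx1b-/- larvae and of larvae that lacked both genes (double knock-out). The knock-outs were made with TALENs, each library was a pool of larvae, and each genotype was represented by its own line only, so that genotype and line cannot be told apart. The hour at which larvae were collected was not given in the sources used here.

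Pannexins form large-pore membrane channels that release ATP and other small molecules. The teleost genome duplication left zebrafish with a pair of pannexin1 genes, the ohnologs panx1a and panx1b, where mammals have a single gene. Genes that descend from the same ancestor can cover for each other, so that losing both does more than the sum of the separate losses, or they can act in the same pathway, so that a later loss adds little. Such departures from the sum are measured by the interaction term of a factorial design.

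Effects were added on the log2 scale. The interaction of a gene was its change on loss of panx1b in larvae that lacked panx1a (double knock-out against panx1a-/-) minus its change on loss of panx1b in larvae with intact panx1a (panx1b-/- against TL). A value above 0 means that the double knock-out lay higher than the sum of the separate losses, and a value below 0 that it lay lower. A gene was called at an adjusted p-value (Benjamini-Hochberg) under 0.05 together with a p-value under 0.001 in edgeR's quasi-likelihood test, and the number after ± is a standard error (SE). Levels are given as CPM (reads of a gene scaled to library size) after TMM normalization, in the order of replicates 1, 2 and 3.

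Library totals ranged from 20581029 to 29259122 counts. Within a line, the counts of replicates were compared by chi-square over genes, where sampling noise alone gives a value near 1 when divided by the degrees of freedom. Replicates 2 and 3 of the double knock-out were closer to each other (2.84) than any other replicates (10.2 to 24.6). They still differed by more than sampling noise and were kept as separate samples. The paper states that its sequencing used 3 independent pools of larvae, but it does not describe the double knock-out. Whether replicates 2 and 3 of this line came from a shared pool is therefore not known. If they did, the double knock-out would hold only 2 independent samples, and the standard errors and p-values given here would be too small. Without replicate 2 of this line 996 genes were called, and without replicate 3 the number was 1015. Mitochondrial transcripts took 2.63 to 3.49% of the counts. The first principal component of the libraries carried 34.0% of the variance, and its group means were -6.55 in TL, 25.5 in panx1a-/-, -44.5 in panx1b-/- and 25.6 in the double knock-out. An additive double knock-out would have lain at -12.5. On the second component, with 23.8% of the variance, the double knock-out lay at -25.7 and the additive position was -45.7.

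The annotation gives the symbol PANX1 to both ohnologs and does not say which identifier is panx1a, so they are named by identifier here. PANX1 ENSDARG00000025285 had 13.2, 11.7 and 14.4 CPM in TL and 9.11, 9.84 and 9.76 CPM in panx1b-/-. It was at 3.86, 4.81 and 4.15 CPM in panx1a-/- and at 4.30, 4.09 and 4.35 CPM in the double knock-out, so that both lines without panx1a lay below both lines with it. Its interaction was 0.44 ± 0.18 (adjusted p = 0.147), which was not called. PANX1 ENSDARG00000014910 behaved differently. It had 6.94, 5.78 and 4.69 CPM in TL, 7.52, 8.83 and 8.27 CPM in panx1a-/-, 5.83, 6.24 and 7.10 CPM in panx1b-/- and 3.65, 3.85 and 4.75 CPM in the double knock-out. Neither separate loss nor the comparison of the double knock-out with TL was called for this gene, but its interaction was -1.15 ± 0.23 (adjusted p = 0.00463). A mutated gene can leave a transcript that can still be counted, so these levels are no measure of the protein. The interactions of PANX2 (-0.29) and PANX3 (-0.07), the other family members, were not called.

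Across the transcriptome, the change on loss of panx1b differed between the lines with and without panx1a for a substantial set of genes. As each genotype was its own line, a dependence on panx1a cannot be told apart from other differences between the lines. Of 24261 genes with at least 1 count in all 12 libraries, 1292 were called for the interaction (5.33%). In 622 of them the double knock-out lay above the sum of the separate losses (2.56%), and in 670 below it (2.76%). The median size of the interaction was 1.26 on the log2 scale among called genes against 0.26 over all genes tested, and 832 called genes had an interaction larger than 1 in size.

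The interaction most often opposed the separate effects. At least 1 separate loss was called for 950 of the 1292 genes, and for 913 of these the interaction had the opposite sign to it. This is also the direction that the calculation favours, because the libraries of the separate losses and of TL enter the separate effects and the interaction with opposite signs. The following comparisons share no library. Loss of panx1b in the intact background called 1084 genes lower (4.47%). In the panx1a-null background 188 of these were again called lower, 67 were called higher, and 829 were not called. Of 854 genes called higher on panx1b loss in the intact background (3.52%), 77 were again higher, 58 were lower and 719 were not called. Over all genes, the panx1b loss was called for 7.99% in the intact and 6.03% in the panx1a-null background, where 2.32% were higher and 3.71% lower. The latter comparison called 1462 genes, but only 935 without replicate 2 and 903 without replicate 3 of the double knock-out. For the loss of panx1a, 277 of 879 genes called lower in the intact background (3.62%) were again lower without panx1b, where 5.47% of all genes were lower. Of 704 genes called higher (2.90%), 153 were again higher, where 4.11% of all genes were higher. In all, the panx1a loss was called for 6.52% of genes with intact panx1b and for 9.59% without it. Whether the ohnologs differ in how often a change repeats was not tested.

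**Figure D1:**
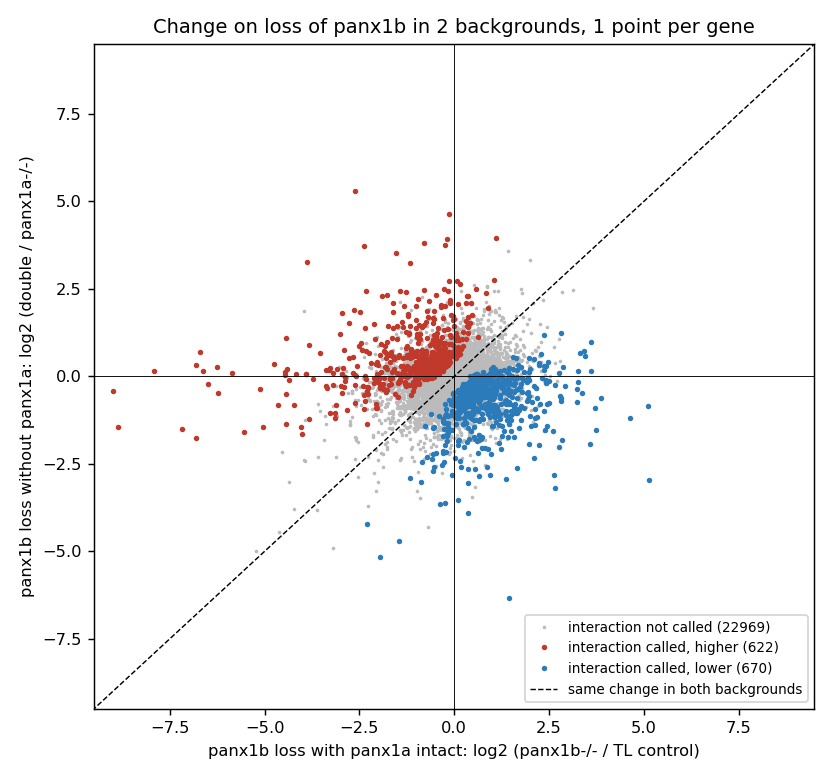
Each point is a gene, with its log2 change on loss of panx1b in larvae with intact panx1a on the x axis and in panx1a-null larvae on the y axis. The 622 genes called higher (red) lie above the dashed line of equal change and the 670 called lower (blue) below it.

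The 1292 genes were sorted by which of the 3 comparisons with TL were called. The double knock-out differed from TL in 2222 genes (9.16%), of which 838 were higher (3.45%) and 1384 lower (5.70%). As these share the TL libraries, the classes are descriptions and carry no test. Masking, with a separate loss called and the double knock-out not called, held 674 genes (52.2%). In 381 of them panx1b-/- was the only line called, with 194 genes higher and 187 lower. Partial effects, with a double knock-out changed in the same direction but by less than the sum, held 194 genes (15.0%). Synergy, with a double knock-out that was changed without a called separate effect or by more than the sum, held 136 genes (10.5%). Reversal, with a double knock-out changed against every called separate effect, held 50 genes (3.87%), and 22 genes were mixed. For the remaining 216 genes (16.7%) only the interaction was called. Without replicate 3 of the double knock-out 84 genes were synergistic, and without replicate 3 of TL 29 were reversed. "Not called" does not mean unchanged: among masking genes the median size of the double knock-out change was 0.26 on the log2 scale, beside 1.04 for the larger separate effect, and 316 of the 674 had a double knock-out change under 0.25 in size.

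Masking was seen in genes with very different roles. The gene exosc3 (ENSDARG00000098334) encodes a subunit of the RNA exosome, which trims and degrades RNA. It had 15.5, 13.4 and 13.4 CPM in TL, 5.46, 5.78 and 4.90 CPM in panx1a-/-, 3.32, 4.54 and 3.31 CPM in panx1b-/- and 10.7, 9.28 and 10.6 CPM in the double knock-out. Each separate loss thus lowered it below every TL library, while the larvae without both genes lay in between. The changes against TL were -1.39 in panx1a-/-, -1.92 in panx1b-/- and -0.47 in the double knock-out, and the interaction was 2.84 ± 0.20 (adjusted p = 2.56e-07). The cerebellin gene cbln8 (ENSDARG00000019294) belongs to a family of secreted synaptic organizers. It was at 8.02, 4.46 and 5.30 CPM in TL and at 9.85, 6.17 and 8.65 CPM in the double knock-out, and these ranges overlapped. In panx1a-/- it had 0.658, 0.430 and 0.784 CPM and in panx1b-/- 1.46, 1.16 and 0.785 CPM, and the interaction was 6.10 ± 0.42 (adjusted p = 2.14e-07).

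CRYM (ENSDARG00000062817), whose mammalian protein binds thyroid hormone, was masked in the opposite direction. It had 1.35, 1.503 and 1.26 CPM in TL, 3.24, 3.32 and 3.72 CPM in panx1a-/-, 10.02, 10.7 and 8.80 CPM in panx1b-/- and 1.06, 0.743 and 1.11 CPM in the double knock-out. Both separate losses raised it without overlap, and all 3 libraries of the double knock-out lay below TL, although that change of -0.49 was not called. Its interaction was -4.66 ± 0.25 (adjusted p = 2.52e-08). The myosin heavy chain gene myhc4 was called lower in panx1b-/- only, at 1.18, 1.83 and 0.915 CPM. It had 21.6, 12.8 and 21.3 CPM in TL, 11.6, 10.9 and 15.2 CPM in panx1a-/- and 21.6, 27.3 and 20.8 CPM in the double knock-out, which gave an interaction of 4.71 ± 0.33 (adjusted p = 2.74e-07). Near-identical myosin genes can share reads, so this value is uncertain.

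Some masked genes were almost silent in 1 line, and their counts are given in place of a fold change. In panx1b-/- the gene ly6m3 had 1, 1 and 3 counts and si:dkey-217f16.3 had 2, 3 and 3 counts. In the double knock-out these genes were at 3.73 to 4.95 CPM and 11.4 to 19.97 CPM, beside 4.87 to 7.29 CPM and 13.8 to 23.4 CPM in TL. The gene si:ch211-147g22.7 had 2, 1 and 1 counts in panx1a-/-, 0.349 to 0.501 CPM in panx1b-/- and 2.173 to 2.57 CPM in the double knock-out, which overlapped the 2.02 to 3.42 CPM of TL.

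Reversal was led by GSN (ENSDARG00000045262), which encodes the actin-severing protein gelsolin. It had 14.6, 11.9 and 11.1 CPM in TL, 36.6, 30.4 and 32.7 CPM in panx1a-/- and 89.2, 74.9 and 71.0 CPM in panx1b-/-. In the double knock-out it was at 6.29, 4.22 and 3.51 CPM, below every other library. The changes against TL were 2.64 in panx1b-/- and -1.43 in the double knock-out, and the interaction was -5.47 ± 0.24 (adjusted p = 2.42e-09). Among the 1292 genes, GSN was the only one called higher in both separate losses and lower in the double knock-out.

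Most reversals started from an effect of panx1b loss alone: 18 genes were higher in panx1b-/- and lower in the double knock-out, and 15 were lower and then higher. The gene fkbp15a (ENSDARG00000095142) had 9.05, 9.44 and 11.3 CPM in TL, 14.0, 10.7 and 11.1 CPM in panx1a-/-, 20.6, 17.6 and 19.8 CPM in panx1b-/- and 2.173, 2.65 and 2.75 CPM in the double knock-out, with an interaction of -3.19 ± 0.20 (adjusted p = 1.07e-07). The inducible chaperone gene hsp70l (ENSDARG00000055723) followed the same order. It had 6.22, 8.31 and 5.70 CPM in TL, 7.34, 4.57 and 6.78 CPM in panx1a-/-, 15.9, 17.7 and 17.9 CPM in panx1b-/- and 3.47, 3.71 and 3.51 CPM in the double knock-out. Its interaction of -2.15 ± 0.25 (adjusted p = 5.22e-05) was the only call among the 28 heat shock genes tested, and hsp70 copies can share reads. In the other direction, si:dkey-88j15.3, a gene without an assigned role, had 7.75, 9.25 and 17.1 CPM in TL, 2.96, 2.31 and 3.02 CPM in panx1a-/-, 0.455, 1.16 and 0.697 CPM in panx1b-/- and 25.15, 26.0 and 28.05 CPM in the double knock-out (interaction 7.14 ± 0.41, adjusted p = 3.85e-08).

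As among all genes called in the double knock-out against TL (1384 lower, 838 higher), synergistic genes were more often lower than higher. Neither separate loss was called for 126 of the 136 genes, of which 79 were lower and 47 higher in the double knock-out. The serine protease inhibitor gene serpinb14 (ENSDARG00000091801) had 42.0, 36.4 and 38.6 CPM in TL, 33.5, 39.8 and 35.4 CPM in panx1a-/- and 41.2, 34.3 and 37.9 CPM in panx1b-/-. These ranges overlapped. The double knock-out had 5.73, 4.55 and 5.01 CPM, and the interaction was -2.78 ± 0.15 (adjusted p = 2.52e-08). The double knock-out was also low for mucms1, a mucin gene by its symbol, with 1, 3 and 1 counts. TL was spread widely from 0.282 to 3.90 CPM. Its interaction lay between -8.51 and -7.32 in the alternative analyses. This is more than its fall against TL, so the separate losses entered it as well, unlike for serpinb14.

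Synergy in the upward direction included HMOX1 (ENSDARG00000027529), the heme oxygenase that breaks down heme and responds to oxidative stress. It had 17.7, 13.1 and 14.4 CPM in TL, 17.6, 13.4 and 16.7 CPM in panx1a-/-, 9.47, 9.04 and 12.4 CPM in panx1b-/- and 50.5, 48.8 and 52.8 CPM in the double knock-out. All libraries of the double knock-out thus exceeded all others, with an interaction of 2.22 ± 0.20 (adjusted p = 3.51e-06). DNAJC9 (ENSDARG00000031293), a co-chaperone that in human cells handles histones, had 11.8, 12.5 and 13.5 CPM in TL, 12.2, 9.89 and 10.7 CPM in panx1a-/-, 9.88, 10.3 and 9.94 CPM in panx1b-/- and 24.1, 23.2 and 24.4 CPM in the double knock-out (interaction 1.47 ± 0.14, adjusted p = 9.05e-06).

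Partial effects were led by genes that both separate losses changed alike: 79 of the 194 were higher and 73 lower in all 3 knock-out lines. CCDC39 (ENSDARG00000100981), which encodes a protein that sets the spacing of motors along motile cilia, had 54.7, 51.8 and 54.1 CPM in TL. All knock-out lines were far lower, with 14.1, 13.5 and 15.4 CPM in panx1a-/-, 9.56, 7.71 and 7.89 CPM in panx1b-/- and 15.3, 13.6 and 16.9 CPM in the double knock-out. The larvae without both genes were therefore at the level of panx1a-/- and not at the lower level of the sum, and the interaction was 2.76 ± 0.15 (adjusted p = 2.52e-08). CCDC39 stood apart from the other motile cilia genes. Of 57 tested, 48 had an interaction below 0, with a median of -0.40. CCDC39 was the 1 called higher, and 4 were called lower (8.77% called, beside 5.33% of all genes). The interferon-induced GTPase gene gbp3 was higher in all knock-out lines and least so in the double knock-out, with changes against TL of 1.68 in panx1a-/-, 1.37 in panx1b-/- and 0.57 in the double knock-out (interaction -2.48 ± 0.16). Mixed genes included HBE1, an embryonic-type beta globin by its symbol, which was at 9.81 to 13.3 CPM in TL, 5.97 to 7.76 CPM in panx1a-/-, 23.3 to 26.8 CPM in panx1b-/- and 42.1 to 54.3 CPM in the double knock-out (interaction 1.71 ± 0.19). Globin genes are near-identical copies, and their counts can be split between them.

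**Figure D2:**
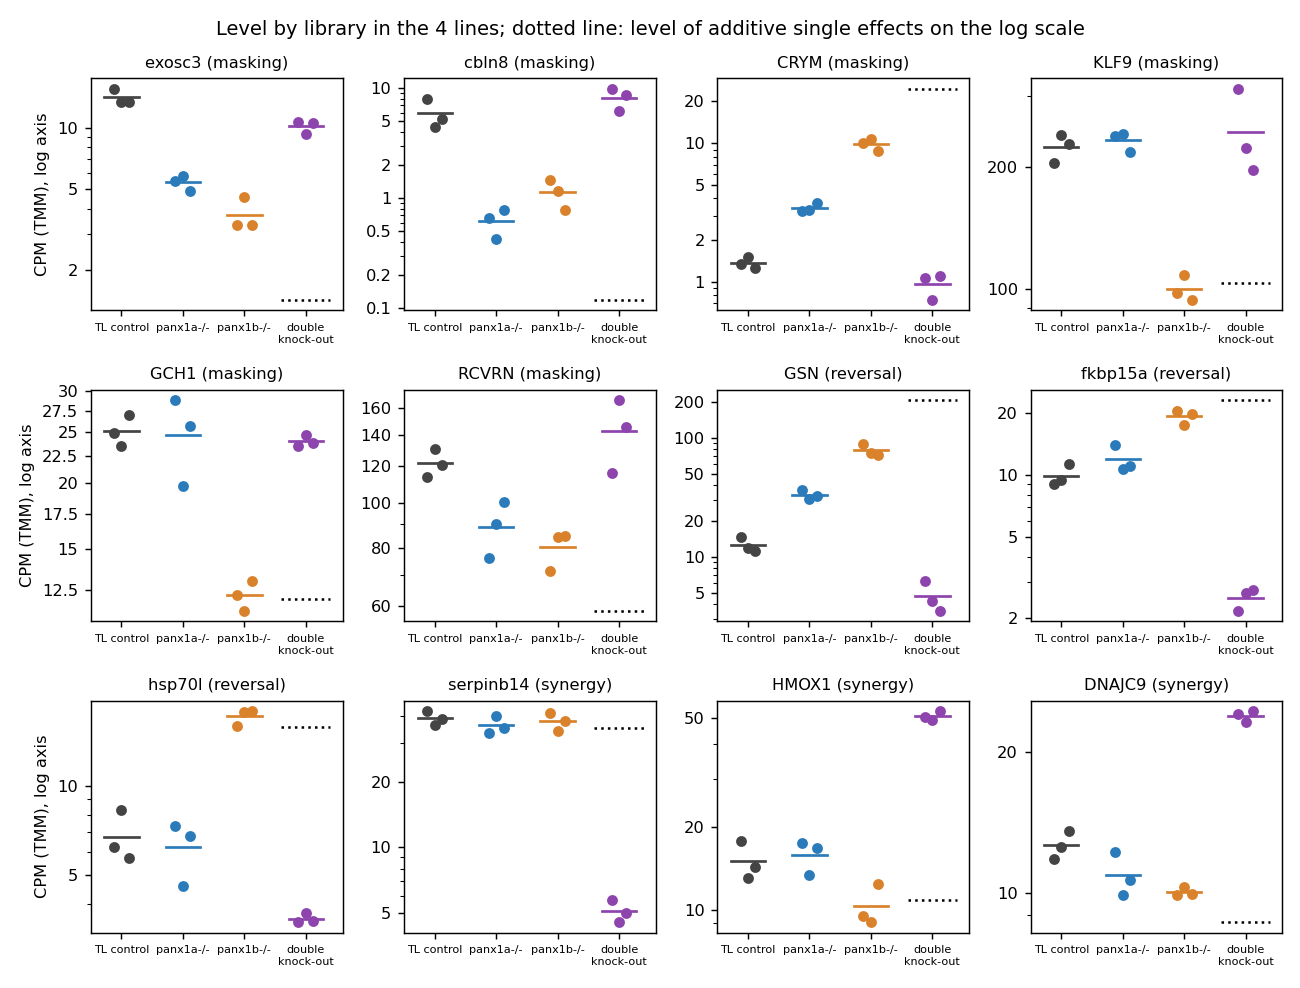
Each panel shows a gene named by the selection rule, with the CPM of each library on a log axis (points, replicates 1 to 3 from left to right), the mean of each line (solid bar) and the level that the separate effects would add up to in the double knock-out (dotted bar). In masked genes the double knock-out returns to or near TL, and in GSN, fkbp15a and hsp70l it falls below TL while panx1b-/- lies above. For serpinb14 the double knock-out alone lies apart. For HMOX1 and DNAJC9 the double knock-out lies above all other libraries, while panx1b-/- lies below TL.

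Many clock genes changed on loss of panx1b both with and without panx1a, and some of them also departed from the sum. The circadian clock is a feedback loop in which CLOCK and BMAL proteins activate genes of the PER, CRY and NR1D families, whose proteins repress that activation. In zebrafish it is set directly by light in most tissues. Clock genes were already a topic of the study of these larvae, so their counts in panx1b-/- are not independent evidence. Over 47 clock and light-response genes tested, the panx1b loss was called for 23 in the intact background, 8 higher and 15 lower (48.9%, beside 7.99% of all genes). In the panx1a-null background it was called for 26, 11 higher and 15 lower (55.3%, beside 6.03% of all genes). These comparisons share no library, and all 20 genes called in both moved in the same direction, while over all genes 265 moved in the same and 125 in the opposite direction. Loss of panx1a was called for 3 of the 47 genes with intact panx1b (6.38%, beside 6.52% of all genes) and for 8 without panx1b, all higher (17.0%, beside 9.59% of all genes).

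Among the clock repressors, PER1 ENSDARG00000056885 changed on loss of panx1b by -1.62 (log2) with intact panx1a and by -1.78 without it. Its interaction was -0.16 ± 0.17. CRY2 changed by -0.81 and -0.92, and BHLHE41 by -0.90 and -0.86. The D-box factors dbpa and dbpb, which pass the rhythm on to output genes, changed by -1.02 and -0.92 and by -1.14 and -1.11. Of 11 clock activators, 4 were called higher in the intact background (beside 3.52% of all genes) and 5 in the panx1a-null background (beside 2.32%), and none lower. They included BMAL1 ENSDARG00000006791 with 0.44 and 0.76 and rorcb with 0.47 and 0.88. The paper reports bmal1a, bmal1b and clock2 as lower in panx1b-/- larvae by RT-qPCR and RNA-seq. Here no clock activator was called lower, and this BMAL1 entry changed in the opposite direction. The paper tested transcripts, while counts of genes were tested here. The reason for this difference was not tested. None of the 11 was called for the interaction by edgeR, while DESeq2 called 2. In edgeR 4 had an unadjusted p under 0.05, beside 5639 of all 24261 genes.

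The interaction was called for 6 of the 47 clock genes, 5 higher and 1 lower (12.8%, beside 5.33% of all genes). At an unadjusted p under 0.05 there were 18 of the 47, beside 5639 of all 24261 genes. The repressor gene cipca (ENSDARG00000075397) codes for a protein that in mammals inhibits CLOCK. It had 13.9, 13.9 and 14.8 CPM in TL and 12.8, 16.0 and 14.1 CPM in panx1a-/-, 2.73, 4.098 and 3.36 CPM in panx1b-/- and 7.44, 7.38 and 8.25 CPM in the double knock-out. The double knock-out thus lay between panx1b-/- and the other lines, and the interaction was 1.16 ± 0.19 (adjusted p = 0.00126). The light-induced photolyase gene cry5 was lower in panx1b-/- only, at 10.6 to 13.2 CPM, and was at 18.5 to 25.8 CPM in the double knock-out and 19.96 to 22.8 CPM in TL (interaction 0.98 ± 0.18). The nuclear receptor gene nr1d2a, of the REV-ERB repressors, was lowered by 0.58 in panx1a-/-, by 0.88 in panx1b-/- and by only 0.55 in the double knock-out (interaction 0.91 ± 0.14). The other 3 calls were synergistic and were less firm. PER1 ENSDARG00000012499 fell further without panx1a (-1.42) than with it (-0.78), a call that was lost without replicate 3 of the double knock-out (-0.60, main value -0.64). The call of nr1d4b was lost without replicate 3 of panx1a-/- (0.72, main value 0.77) and that of nfil3-5 in 10 of 12 analyses with 1 library left out (main value 0.51, range 0.44 to 0.61).

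**Figure D3:**
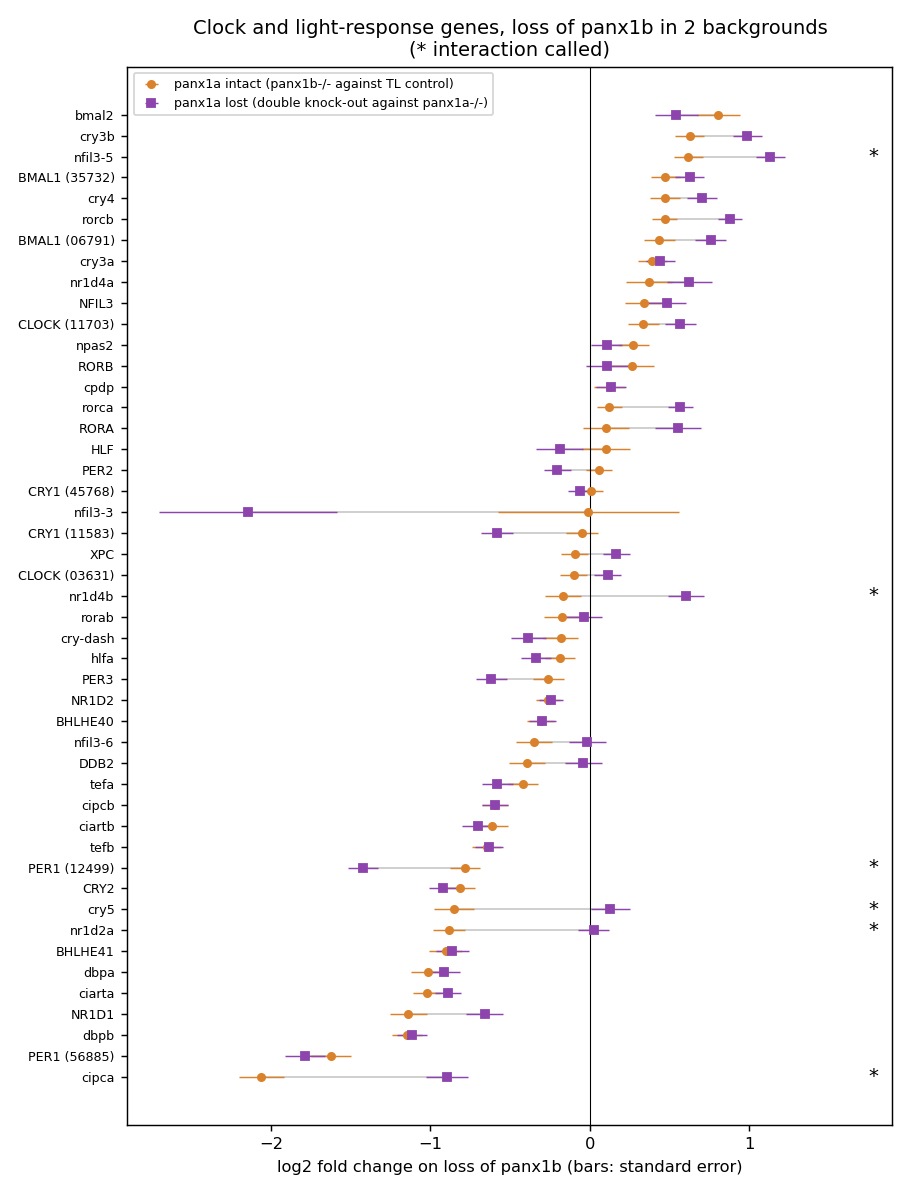
For each of the 47 clock and light-response genes, the log2 change on loss of panx1b is drawn with intact panx1a (orange circles) and without panx1a (purple squares), with bars of 1 SE and a star where the interaction was called. The symbols of PER1 ENSDARG00000056885 lie side by side at -1.62 and -1.78, those of cipca lie apart, and 6 genes carry a star.

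Among photoreceptor and lens genes, the called interactions were above 0. Photoreceptors of the retina, rods and cones, turn light into a fall of cyclic GMP. Of 48 rod and cone genes tested, 6 were called, all with a double knock-out above the sum (12.5%, beside 2.56% of all genes), and the median of the list was 0.38, beside 0.0088 over all genes. The interaction was below 0 for 15 of the 48, and 1 of them was called lower without replicate 2 of panx1a-/- and 1 with the adjusted p alone. RCVRN (ENSDARG00000009637), the calcium sensor recoverin, had 114, 131 and 120 CPM in TL, 76.05, 90.03 and 100.3 CPM in panx1a-/-, 71.5, 84.6 and 85.0 CPM in panx1b-/- and 116, 166 and 145 CPM in the double knock-out. All libraries of the separate losses lay below those of TL and of the double knock-out, with an interaction of 1.28 ± 0.18 (adjusted p = 0.000381). The cone channel subunit CNGA3 ENSDARG00000012297 (1.07 ± 0.17), the retinal guanylate cyclase gene gucy2d (1.01 ± 0.17) and its activator guca1c (0.88 ± 0.16) followed. This CNGA3 entry and guca1c were still called lower in the double knock-out than in TL (-0.84 and -0.62), while gucy2d changed by -0.03. The other entries with the symbols CNGA3 (0.41) and RCVRN (0.56) were not called. With 1 library left out, 4 to 6 genes of the list were called higher. The 21 visual cycle genes, which regenerate the light-sensitive pigment, had no call in edgeR or DESeq2. Of these 21, 2 had an unadjusted p under 0.05, beside 5639 of all 24261 genes.

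Lens genes had the highest median interaction of the tissue lists, 0.78. Most of them encode crystallins, the abundant structural proteins of the lens, and the list also holds other lens genes such as BFSP2, which was called. Of 59 genes, 49 had an interaction above 0 and 10 below, and 9 were called, all higher (15.3%, beside 2.56% of all genes). The gene crygm2d16 had 167, 183 and 170 CPM in TL, 78.5, 113 and 96.2 CPM in panx1a-/-, 77.0, 117 and 72.9 CPM in panx1b-/- and 222, 201 and 198 CPM in the double knock-out, so that each separate loss was below and the double knock-out above TL (interaction 2.07 ± 0.22, adjusted p = 2.59e-05). The summed level of the list was 8778 to 9242 CPM in TL and 11451 to 12505 CPM in the double knock-out. It was spread widely in the separate losses, 6722 to 9434 CPM in panx1a-/- and 5866 to 9693 CPM in panx1b-/-, and 1 library decided the count: 28 genes were called without replicate 2 of panx1b-/-, 4 without replicate 3 of that line or replicate 1 of panx1a-/-, and 5 without replicate 2 of the double knock-out. The crygm2d genes are near-identical copies that can share reads. In whole larvae, fewer lens cells and less RNA per cell cannot be told apart.

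Immediate early genes, which are switched on within minutes of a stimulus, showed the highest share of calls among the protein-coding lists. Of 31 genes tested, 8 were called higher and 1 lower (29.0%, beside 5.33% of all genes), and the median was 0.57. On panx1b loss 8 of the 31 were called lower in the intact background (beside 4.47% of all genes) and 3 in the panx1a-null background (beside 3.71%). NPAS4 (ENSDARG00000055752), a transcription factor induced by neuronal activity, had 7.16, 20.4 and 12.99 CPM in TL, 14.5, 10.98 and 11.01 CPM in panx1a-/-, 5.69, 4.77 and 6.54 CPM in panx1b-/- and 18.2, 15.8 and 20.2 CPM in the double knock-out (interaction 1.83 ± 0.37, adjusted p = 0.00603). Its TL libraries were spread widely, while panx1b-/- lay below every other library. The other entry with the symbol NPAS4 (1.07) was not called. The factor klf2a, which responds to blood flow, was lower in both separate losses, at 28.5, 32.4 and 30.2 CPM in panx1a-/- and at 27.9, 39.2 and 28.1 CPM in panx1b-/-. It was at 38.1, 72.2 and 67.4 CPM in TL and 86.9, 65.7 and 58.4 CPM in the double knock-out (interaction 2.11 ± 0.29, adjusted p = 0.000286). The related gene klf2b went the other way and was the 1 called lower. It changed by 0.70 in panx1b-/- and by 0.20 in the double knock-out (interaction -0.73 ± 0.17). DUSP1, which switches off MAP kinases, had an interaction of 0.95 ± 0.18, and ier2a one of 1.05 ± 0.22, which was not called without replicate 3 of TL (0.96). Only 4 genes of the list were called higher without replicate 3 of TL, replicate 3 of panx1a-/- or replicate 1 of the double knock-out, and 5 without replicate 2 of TL, panx1a-/- or panx1b-/-.

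Some glucocorticoid targets were masked and others were not. KLF9 (ENSDARG00000068194), a factor induced by glucocorticoids, had 205, 241 and 228 CPM in TL and 239, 242 and 218 CPM in panx1a-/-. It had 97.7, 108 and 94.1 CPM in panx1b-/- and 312, 223 and 196 CPM in the double knock-out, so that only panx1b-/- stood apart (interaction 1.24 ± 0.19, adjusted p = 0.00081). The glucocorticoid-induced gene tsc22d3 changed by -0.42 in panx1b-/- and by 0.13 in the double knock-out (interaction 0.63 ± 0.11). FKBP5, a co-chaperone of the glucocorticoid receptor, changed by -1.92 in panx1b-/- and by -1.02 in the double knock-out, and its interaction of 0.96 was not called. The kinase gene sgk1 changed by -0.18 and -0.08 in the same lines (interaction 0.07, not called). Of 23 stress axis genes tested, 4 were called (17.4%, beside 5.33% of all genes), with 2 higher and 2 lower. The 2 lower genes were NR3C2, the mineralocorticoid receptor, whose call was lost in 9 of 12 analyses with 1 library left out, and PER1 ENSDARG00000012499, also a clock gene. GCH1 (ENSDARG00000070453), the first enzyme of tetrahydrobiopterin synthesis, which dopamine synthesis requires, was low in panx1b-/- only, with 12.2, 11.4 and 13.03 CPM there, 24.96, 23.6 and 26.99 CPM in TL, 28.8, 19.8 and 25.7 CPM in panx1a-/- and 23.6, 24.7 and 23.8 CPM in the double knock-out (interaction 1.00 ± 0.17, adjusted p = 0.00151). Of 23 dopamine genes tested, 2 were called (8.7%, beside 5.33% of all genes), GCH1 higher and mao lower. The interaction of mao was -0.70 ± 0.16, and its call was lost in 8 of 12 analyses with 1 library left out.

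Lists of skin and exocrine pancreas genes held interactions mostly below 0. Over all 24261 genes, 11877 lay below 0 and 5.33% were called, 2.76% lower and 2.56% higher. These shares stand beside each list of this paragraph. Of 30 skin keratin and junction genes tested, 25 had an interaction below 0, and the median was -0.35. Of these 30, 6 were called lower and 1 higher (23.3%, beside 5.33% of all genes). The keratin gene cyt1l was raised in panx1b-/- to 1115, 960.1 and 767 CPM, beside 91.9, 185 and 176 CPM in TL, 216, 243 and 180 CPM in panx1a-/- and 222, 155 and 164 CPM in the double knock-out (interaction -2.89 ± 0.32, adjusted p = 3.41e-05). DSP ENSDARG00000022309 and PPL, which encode desmosome and cornified envelope proteins, had interactions of -0.76 ± 0.13 and -0.90 ± 0.17. The other entry with the symbol DSP (-0.50) was not called. The keratin gene krt99 was lower in all knock-out lines and had an interaction of 2.06 ± 0.27. Keratin genes can share reads. Of 22 genes of the exocrine pancreas, 18 had an interaction below 0, 3 were called lower and 1 higher (18.2%), while 9 were called lower without replicate 1 of the double knock-out and 7 without replicate 1 of panx1b-/-. The amylase copies, which can share reads, had interactions of opposite sign, 2.95 for amy2al1 (mean 2.44 CPM) and -1.83 for amy2al2 (mean 147 CPM). The first changed by -1.50 in panx1b-/- and was highest in the double knock-out (5.10 to 6.43 CPM beside 0.811 to 1.55 CPM in TL), and amy2al2 was raised alike in all knock-out lines, by 1.71, 1.96 and 1.84. CD74, the invariant chain of antigen presentation, has the ohnologs cd74a and cd74b. The first had 0.901, 1.36 and 1.95 CPM in TL, 2.26, 4.06 and 5.53 CPM in panx1a-/-, 5.51, 6.24 and 5.80 CPM in panx1b-/- and 1.76, 1.44 and 1.29 CPM in the double knock-out (interaction -3.44 ± 0.42, adjusted p = 9.20e-05), and the second had an interaction of -1.89 ± 0.32. They were the only called genes among 18 immune cell genes (11.1%), of which 9 had an interaction above and 9 below 0. Of 21 inflammation genes, 12 were above and 9 below 0, with 2 called higher and 1 lower (14.3%). In 112 polymorphic immune genes, which include near-identical copies, 66 had an interaction below 0, 10 were called lower and 3 higher (11.6%), and the number called lower was 3 to 6 in 8 of 12 analyses with 1 library left out, lowest without replicate 2 of the double knock-out or of panx1a-/-.

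**Figure D4:**
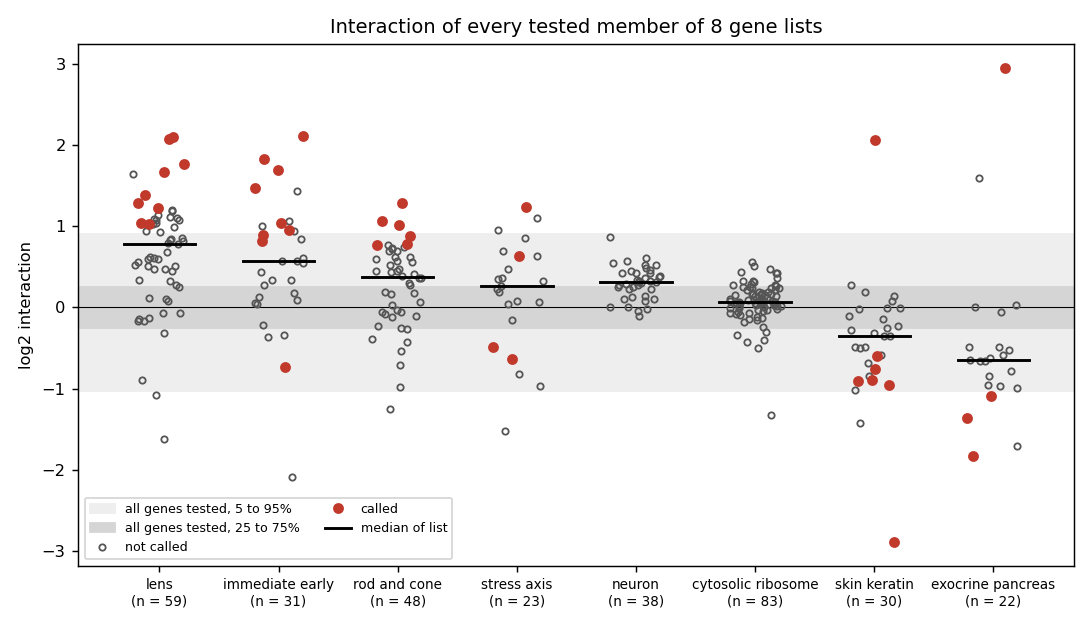
The log2 interaction of every tested member is shown for 8 gene lists, with called genes filled, the median of each list as a black bar and the spread of all genes tested in grey. Lens (median 0.78), immediate early (0.57) and rod and cone genes (0.38) lie mostly above 0, and skin keratin (-0.35) and exocrine pancreas genes (-0.65) mostly below.

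In gene groups of basic cell function, the share of called interactions was near that of all genes (5.33%) or lower. Over all 24261 genes, 5639 had an unadjusted p under 0.05 for the interaction. That share stands beside each such count of this paragraph. Of 104 genes of ribosomal RNA processing, 21 were called lower on panx1b loss in the intact background, beside 4.47% of all genes. In the panx1a-null background 21 were lower, beside 3.71% of all genes, and 10 were called in the same direction in both. The interaction was called for 4 of the 104 (3.85%, with 25 at an unadjusted p under 0.05). Only 2 were called without replicate 1 or 3 of TL, replicate 2 of the double knock-out or replicate 2 of panx1a-/-. In 30 histone genes the panx1a loss was called lower for 15 in the intact background, beside 3.62% of all genes. In the panx1b-null background 10 were lower, beside 5.47% of all genes, and 10 were called in the same direction in both. The only called interaction was that of H3-3B (0.69 ± 0.16; 3.33% of the list, with 8 genes at an unadjusted p under 0.05), a call that was lost in 8 of 12 analyses with 1 library left out (0.60 to 0.81). No interaction was called by edgeR among 83 cytosolic ribosome genes, 72 glutamate and GABA receptor genes and 34 connexins, the gap junction proteins with which pannexins share their topology. At an unadjusted p under 0.05 there were 9, 9 and 7 genes, and DESeq2 called none of them. The 38 neuron genes had none called by edgeR, 4 at an unadjusted p under 0.05 and 1 by DESeq2, although 34 of them had an interaction above 0 and the median was 0.31. The largest share of all lists was that of the 7SL RNA copies, the RNA of the signal recognition particle, with 15 called higher and 6 lower of 49 (42.9%). These copies are near-identical, took 0.81 to 2.03% of the counts, and are reported as uncertain.

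**Figure D5:**
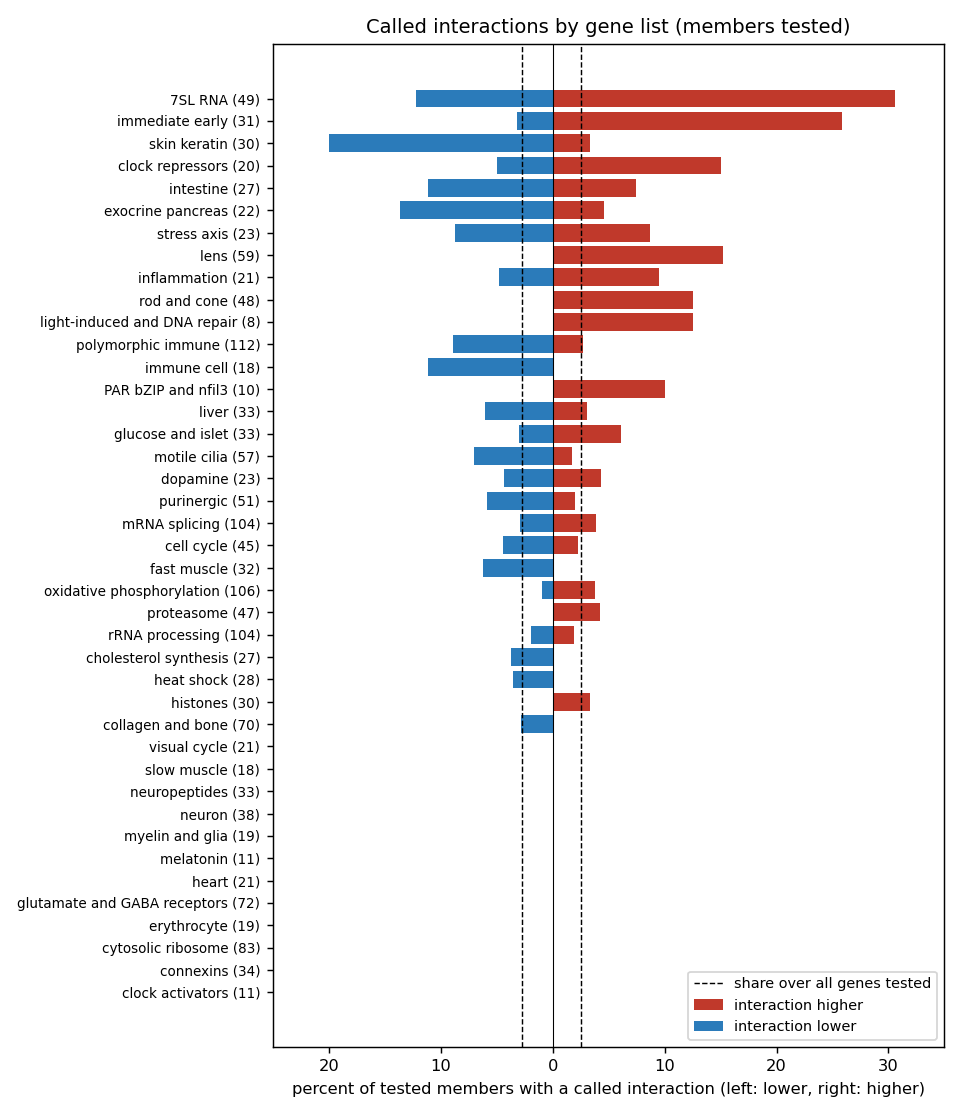
Bars give the percent of tested members with a called interaction, to the right where the double knock-out lay above the sum and to the left where it lay below, for each gene list with its number of tested members. Dashed lines mark the shares over all genes tested (2.56% and 2.76%); immediate early, lens and rod and cone genes extend to the right, skin keratin genes to the left, and 12 lists have no bar.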

How the data were processed

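Whole-larva RNA was sequenced in 12 libraries of 4 lines, 3 per line, from NEBNext Ultra II Directional libraries. The authors deposited raw counts, whole numbers for each of 31261 Ensembl genes per library. The submitters' processing notes name bcl2fastq 2.17, FastQC 0.11.2, Trim Galore 0.4.4, TopHat2 2.0.11, HTSeq 0.6.1p2 and danRer11. The paper describes RSEM, and the strand setting is not given in the sources used here, so overlapping and antisense genes cannot be separated. Symbols were matched to 28223 identifiers (90.3%) and 5483 of these identifiers share a symbol. Nothing says that pools came from separate clutches, and the p-values measure the spread between pools.

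Counts were fitted for all 12 libraries together with edgeR 4.0.16 (quasi-likelihood test, TMM) in R 4.3.3, with panx1a genotype, panx1b genotype and their interaction. Genes with a count of 0 in any library were not tested, and p-values were adjusted over 24261 genes. The SE is the log2 value divided by the square root of its F statistic. Alternatives were DESeq2 1.42.0, other size factors, other minimum counts, the adjusted p alone, a replicate block, only genes matched to a protein-coding biotype, no 7SL copies and each library left out.

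The naming rule selected the pannexins and the 10 genes with the largest interaction in each direction among called genes with a symbol and at least 1 CPM. It also selected the 5 with the smallest p in each class and up to 4 called members of each list, with all called clock genes. Only some of the selected genes are given here, picked with their values known. Clock genes without a called interaction, and further members given by value, were chosen after their values were seen. The members and lists were chosen with earlier results of these data known. The fit was tested on simulated data: of 100 genes with a 2-fold interaction 57 were called and of 100 with a 3-fold interaction 90, with 9 other genes called among 24032. At this depth and replication many 2-fold departures would therefore be missed.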

Additional observations from a re-analysis of the deposited data

Results flagged for a closer look

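By the test of the interaction itself, the change on loss of panx1b differed between the lines with and without panx1a for 1292 genes. Of these, 622 lay higher and 670 lower in the double knock-out than the sum of the separate losses. Genotype and line cannot be told apart here. Groups of 3 libraries were not tested for single outlying values.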

How the results depend on the processing

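With 1 library left out, the genes called for the interaction ranged from 488 (without TL replicate 3) to 703 higher and from 493 (without double knock-out replicate 2) to 765 lower, masking from 534 to 713, reversal from 29 (without TL replicate 3) to 53 and synergy from 84 (without double knock-out replicate 3) to 151. In the same analyses the panx1b loss was called for 1315 to 1962 genes in the intact and 903 (without double knock-out replicate 3; 935 without replicate 2) to 1609 in the panx1a-null background, and the panx1a loss for 1059 to 1628 and, without panx1b, 1698 to 2522 genes. With the adjusted p alone, the interaction was called higher for 1076 and lower for 1173 genes, with 1048 masked, 129 reversed and 291 synergistic, and the panx1b loss for 3489 and 2699 genes and the panx1a loss for 2773 and 4514 genes in the intact and null backgrounds. Reversal fell to 32 genes when only the 19796 genes matched to a protein-coding biotype were tested. This setting also dropped genes without a matched biotype, as only 19985 of the 24261 genes had one. The fall is therefore no measure of non-coding genes. DESeq2 called 1758 genes, 1277 of them among the 1292, and scaling by library size alone called 1303, 1180 of them shared, with 42.4% higher in place of 48.1%. Deviations from the mean of the line had a median r of 0.045 over 18 pairs of same-numbered libraries (-0.18 to 0.32, 6 over 0.1). The median was -0.015 for other pairs. Replicate 1 of the double knock-out had r = 0.32 with replicate 1 of panx1b-/-, 0.17 with that of TL and -0.06 with that of panx1a-/-. Of differently numbered pairs, replicate 2 of TL and replicate 3 of the double knock-out had 0.24. Whether libraries of a number shared a batch cannot be told from these values. With a replicate block, 714 genes were called higher and 729 lower, 1214 of them among the 1292. The lens and the rod and cone lists then had 25 and 13 genes called higher, in place of 9 and 6. Of 127 genes selected by the naming rule with a called interaction, not all of which are given here, none changed direction in any analysis. The call was lost for 17 of them without replicate 2 or replicate 3 of the double knock-out or replicate 1 of panx1a-/-, for 8 with library size alone and for 0 with DESeq2. With at least 10 counts in every library, 1085 genes were called of 21129 tested, beside 1292 of 24261 in the main fit. Of the 1085, 1066 were among the 1292.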

Other observations

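The filter left out genes with a count of 0 in any library, including genes that were silent in 1 line. Without a minimum count, 109 left-out genes were called for the interaction, 45 of them with a mean of at least 1 CPM, and 30 had 0 counts in all 3 libraries of a line. The following genes were chosen after their values were seen. ALKBH2, a DNA repair dioxygenase, had 66, 67 and 94 counts in TL, 117, 138 and 158 in panx1a-/-, 3, 2 and 0 in panx1b-/- and 101, 133 and 136 in the double knock-out (adjusted p = 1.19e-07), the order of a masked gene. The hepcidin gene hamp, whose product limits iron export, had 34, 47 and 73 counts in TL, 20, 8 and 28 in panx1a-/-, 7, 0 and 8 in panx1b-/- and 215, 114 and 165 in the double knock-out (adjusted p = 1.17e-06), so that both separate losses lay below and the double knock-out above TL. PDGFA, a growth factor gene, had 0 counts in all 3 panx1a-/- libraries and 36, 42 and 25 counts in the double knock-out, beside 23, 38 and 44 in TL and 31, 28 and 25 in panx1b-/- (adjusted p = 7.16e-06).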
